A study of Mus musculus with 13 samples.

Results

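The genes described here are 8 genes of peripheral nerve glia: Mbp, Pmp22, Prx, Sox10, S100b, Cnp, Mag and Ncmap. They were chosen by name, as known Schwann cell and myelin genes, out of the 19838 genes counted in each library, and all 8 were measured. The libraries were made from the aorta or the gastrocnemius, a calf muscle, of FVBxC57BL/6 mice at 88 weeks of age. Control mice had the genotype GFP-FOXM1dNdK-/-Rosa26-rtTAtg/+ and are called Rosa26 (4 aorta and 4 muscle libraries). The other mice, called dNdK, had the genotype GFP-FOXM1dNdKtg/+Rosa26-rtTAtg/+ (2 aorta and 3 muscle libraries). Both genotypes thus carried Rosa26-rtTA, a transactivator gene that needs doxycycline to act, and the labels used here give no doxycycline dose, sex or sequencing run. FOXM1 is a transcription factor of the cell cycle, and the transgene encodes a GFP-tagged form of it. The series asks what raised FOXM1 does in aged tissue.

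Schwann cells are the glia of peripheral nerve. Myelinating Schwann cells wrap large axons in compact myelin, in which myelin basic protein and PMP22 are found, and keep channels of non-compact myelin that hold CNP, with periaxin and MAG in other parts of the sheath. Non-myelinating (Remak) Schwann cells hold bundles of small axons, such as the sympathetic fibres of the vessel wall, and carry Sox10 and S100b with little myelin RNA. Motor and sensory nerve branches to muscle hold many myelinated axons. Several of the genes are also read in other cells: Pmp22 in fibroblasts and other cells, Cnp in immune cells, and S100b in adipocytes. In bulk tissue, fewer cells of a type and less RNA per cell cannot be told apart.

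Levels are given as CPM, that is counts scaled to a common library size after TMM, a normalization that discounts a few very abundant genes. Each transcript is read through a short amplicon, so levels are compared between libraries and not between genes. Depth ran from 3919526 to 13683952 gene counts, and the detection floor, set at 3 counts, equalled 0.165 to 0.641 CPM. The TMM factors lay between 1.19 and 1.47 in aorta and between 0.720 and 0.927 in muscle. Scaling by library size alone would therefore raise every aorta over muscle log2 fold change, by 0.88 in Rosa26 and 0.59 in dNdK at the median gene. It would shift the dNdK against Rosa26 changes by -0.13 in aorta and 0.13 in muscle, and their difference between the tissues by -0.29. The labels do not say that the numbered libraries of a group came from separate mice, so p-values measure the spread between libraries.

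The libraries also differed in make-up. Ucp1, which uncouples respiration in brown adipocytes, ranged from 3762 to 6991 CPM in aorta and from 0.374 to 7.78 CPM in 6 of the 7 muscle libraries. The library muscle dNdK 3 held 756 CPM of Ucp1 and 139 CPM of Adipoq, an adipocyte hormone, which was at most 8.997 CPM in the other 6 muscle libraries. Myh6, a myosin of heart muscle, was at 654 and 268 CPM in the first and second aorta libraries of Rosa26, at 553 CPM in aorta dNdK 2, and at most 1.46 CPM in the other 3 aorta libraries.

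Promoter sequences of 2 of the genes follow, S100b because it was the member with a tissue difference past the threshold, and Mag as a gene of myelin proper. Each holds the 250 bases before the transcription start, 5′ to 3′ on the gene's strand, from RefSeq on GRCm38.p6. Capitals mark ACAAAG, a core of the motif bound by SOX factors, read here on the opposite strand as CTTTGT.
S100b, chr10:76253586-76253835, plus strand: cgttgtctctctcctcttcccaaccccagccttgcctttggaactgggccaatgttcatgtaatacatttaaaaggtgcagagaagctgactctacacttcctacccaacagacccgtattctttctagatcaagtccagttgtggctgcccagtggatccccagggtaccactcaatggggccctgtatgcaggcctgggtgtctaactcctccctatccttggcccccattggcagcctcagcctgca
Mag, chr7:30914923-30915172, minus strand: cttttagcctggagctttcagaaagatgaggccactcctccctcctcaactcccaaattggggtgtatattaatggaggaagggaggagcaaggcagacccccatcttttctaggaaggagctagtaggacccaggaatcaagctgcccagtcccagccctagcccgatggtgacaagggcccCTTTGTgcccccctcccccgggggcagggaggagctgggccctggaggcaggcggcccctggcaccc

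Promoter windows from 250 bases before to 50 after a start were on hand for 6 of the 8 genes, as 12 windows. Mbp and Sox10 had none. ACAAAG, searched on both strands, was found in 3 of these 12 windows, of 2 genes: Cnp, 167 bases before its start, and Mag, 67 bases before the start shown. An overlapping window of Mag holds the same site, 126 bases before another start, so this match was counted in both. ACAAAG occurs in 18.7% of all 32851 windows. A further SOX core, ACAATG (12.6% of windows), and the EGR core GCGNGGGCG (5.6%) were in no window of the 6 genes. These matches describe letters in the windows and nothing more.

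S100b (chr10:76253836-76261319) encodes a calcium-binding protein used as a marker of Schwann cells, and it separated the tissues. The aorta Rosa26 libraries 1 to 4 held 82.1, 85.5, 68.1 and 54.0 CPM, and aorta dNdK 1 and 2 held 125 and 78.2 CPM. The muscle Rosa26 libraries held 1.87, 1.33, 1.18 and 3.52 CPM, and muscle dNdK 1 to 3 held 1.17, 1.99 and 34.1 CPM. Every aorta library was thus above every muscle library, and muscle dNdK 3 stood apart from the other 6 muscle libraries. Such separation was not counted over all genes, of which 58.4% passed between the tissues in Rosa26. In Rosa26 the level was 37.0-fold higher in aorta (log2 fold change 5.21, SE 0.36, adjusted p = 1.33e-06 by edgeR's quasi-likelihood test with Benjamini-Hochberg adjustment). In dNdK the log2 fold change was 3.01 (SE 1.27, adjusted p = 0.148), and without muscle dNdK 3 it was 5.96 (adjusted p = 0.0020). DESeq2 called the dNdK difference with all libraries (log2 fold change 3.09, adjusted p = 0.0427), as did edgeR's fit of all 13 libraries together (2.99, adjusted p = 0.0291).

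The 6 aorta libraries were highest in both S100b and Ucp1, and muscle dNdK 3 came next in both. Within aorta the orders differed: S100b was highest in dNdK 1, with 5116 CPM of Ucp1, and Ucp1 was highest in Rosa26 3 (6991 CPM) and 4 (6243 CPM), which had the lowest S100b. Cidea, a lipid droplet protein of brown fat, had another order within aorta. It was lowest in Rosa26 3 (727 CPM) and highest in dNdK 2 (1224 CPM), with 1026 CPM in dNdK 1. Between the tissues it ranked as Ucp1 did, with 297 CPM in muscle dNdK 3 and 0.187 to 2.57 CPM in the other 6 muscle libraries. Among those 6, the highest S100b (3.52 CPM, Rosa26 4) came with 0.629 CPM of Ucp1, and the highest Ucp1 (7.78 CPM, dNdK 1) came with the lowest S100b. The part of fat cells in the S100b levels was not tested. The counts of S100b for each count of Sox10 were 23.3 to 81.9 in aorta Rosa26, 19.2 to 75.7 in aorta dNdK and 0.197 to 1.87 in muscle Rosa26. In muscle dNdK they were 0.25 to 30.9.

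**Figure D1:**
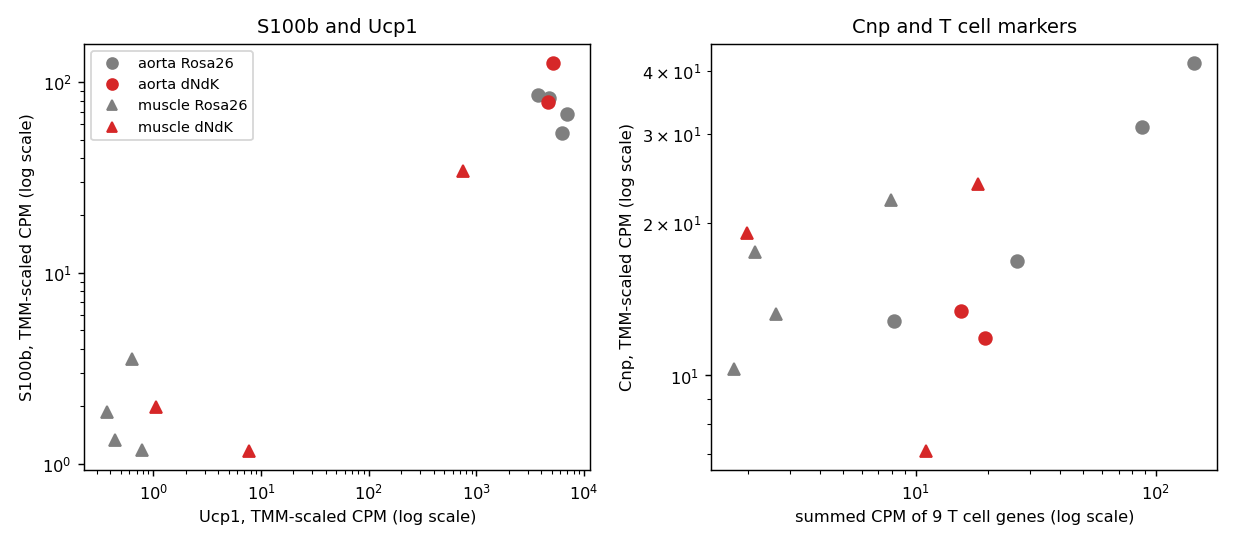
Left, S100b against Ucp1, each point 1 library, both in TMM-scaled CPM on log axes. The 6 aorta libraries (circles) lie at 54.0 to 125 CPM of S100b, muscle dNdK 3 (red triangle) at 34.1 CPM, and the other muscle libraries (triangles) at 1.17 to 3.52 CPM. Right, Cnp against the summed CPM of 9 T cell genes, log axes, where aorta Rosa26 1 and 2 are highest in both. Grey marks Rosa26 and red dNdK.

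Sox10 (chr15:79154913-79164490), the transcription factor that defines the Schwann cell lineage, was read at a low level in every library. In aorta Rosa26 1 to 4 it stood at 2.73, 1.04, 2.93 and 2.14 CPM, and in aorta dNdK 1 and 2 at 1.66 and 4.07 CPM. In muscle Rosa26 it stood at 2.05, 4.44, 5.98 and 1.89 CPM, and in muscle dNdK 1 to 3 at 4.67, 1.52 and 1.10 CPM. The 4 groups overlapped. These levels rest on 10 to 61 counts a library. The log2 fold change of aorta over muscle was -0.72 in Rosa26 (SE 0.49, adjusted p = 0.228 by edgeR) and 0.30 in dNdK (SE 0.79, adjusted p = 0.822). The sign in Rosa26 turned with scaling by library size alone (0.14, adjusted p = 0.811), and the 95% interval of the TMM value ran from -1.80 to 0.36.

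Of the 2 members found in compact myelin, Mbp had its higher estimate in muscle and Pmp22 in aorta, and neither passed the threshold. Mbp (chr18:82475091-82585637), the protein that joins the inner faces of the myelin membrane, was at 9.35, 6.15, 5.79 and 7.26 CPM in aorta Rosa26 and at 5.98 and 8.29 CPM in aorta dNdK. In muscle Rosa26 it was at 12.3, 24.2, 26.0 and 3.90 CPM, and in muscle dNdK at 4.47, 19.9 and 6.39 CPM. The aorta libraries were close together, whereas the muscle libraries ran from below the lowest to above the highest of them. In Rosa26 the log2 fold change of aorta over muscle was -1.23 (SE 0.49) with an adjusted p of 0.0502 by edgeR, just outside the threshold of 0.05. DESeq2 put it inside (-1.25, adjusted p = 0.0220), as did leaving out muscle Rosa26 4 (-1.57, adjusted p = 0.0032). With library size alone it was -0.36 (adjusted p = 0.531), so this difference cannot be stated apart from the scaling. In dNdK it was -0.52 (SE 0.67, adjusted p = 0.6247).

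Pmp22 (chr11:63128982-63159547), a membrane protein of compact myelin whose gene dose is altered in inherited neuropathies, was at 64.3, 52.9, 119 and 140 CPM in aorta Rosa26. It was at 113 and 88.4 CPM in aorta dNdK, at 49.1, 82.5, 70.1 and 49.9 CPM in muscle Rosa26, and at 56.2, 70.3 and 119 CPM in muscle dNdK. The groups overlapped, and the highest muscle library was again muscle dNdK 3. The log2 fold change of aorta over muscle was 0.57 in Rosa26 (SE 0.32, adjusted p = 0.152) and 0.31 in dNdK (SE 0.37, adjusted p = 0.596), both by edgeR. With library size alone the Rosa26 value was 1.41 (adjusted p = 0.0024). Without aorta Rosa26 1 and 2, the libraries with heart RNA, it was 0.99 (adjusted p = 0.0093).

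The genes of non-compact myelin and of the axon-glia contact were near the floor, apart from Cnp. Prx (chr7:27499305-27520041) encodes periaxin, which stabilises the mature myelin sheath. It had 0, 4, 2 and 0 counts in aorta Rosa26 (0 to 0.220 CPM) and 5 and 4 counts in aorta dNdK (0.460 and 0.302 CPM). In muscle Rosa26 it had 9, 14, 15 and 3 counts (1.68, 1.56, 1.47 and 0.377 CPM), and in muscle dNdK 8, 8 and 4 counts (1.56, 0.935 and 0.315 CPM). The muscle Rosa26 values lay above those of aorta Rosa26, although the 0 counts of aorta Rosa26 4, the shallowest library, allow up to 0.641 CPM. Pooled over a group the level was 1.26 against 0.118 CPM (41 against 6 counts). Prx did not pass the filter on low counts in that comparison, so it has no test there. It was tested and called, lower in aorta, without any 1 of the 4 aorta Rosa26 libraries and without muscle Rosa26 4. The same held without aorta Rosa26 1 and 2, with no filter and in the fit of all 13 libraries. Wherever the filter was applied, Prx passed it through its muscle counts, so a call could only be lower in aorta. These calls add no separate support.

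Mag (chr7:30899175-30914922), the adhesion molecule of the myelin layer next to the axon, had 0 to 17 counts in the aorta libraries and 5 to 14 in the muscle libraries. By library it was at 0.368, 0.933, 0.628 and 0 CPM in aorta Rosa26, and at 0 and 0.528 CPM in aorta dNdK. In muscle Rosa26 it was at 1.31, 1.11, 0.490 and 0.629 CPM, and in muscle dNdK at 2.33, 1.05 and 1.10 CPM. In dNdK the aorta libraries lay below those of muscle, with a log2 fold change of -2.34 (SE 1.15, adjusted p = 0.200 by edgeR). Mag passed the filter there through its muscle counts. The share of all genes that separate the tissues in this way was not counted. In Rosa26 the groups overlapped and the gene did not pass the filter. Ncmap (chr4:135369576-135398240), a protein of non-compact myelin, had 0 counts in the 4 aorta Rosa26 libraries together, which allows up to 0.0590 CPM. It had 0 and 5 counts in aorta dNdK, 0, 5, 2 and 1 in muscle Rosa26, and 4, 2 and 3 in muscle dNdK. It was too low to be tested in any of the 5 comparisons.

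Cnp (chr11:100574909-100591875) encodes a phosphodiesterase of non-compact myelin, long used as a myelin enzyme. In aorta Rosa26 1 to 4 it was at 31.1, 41.5, 16.9 and 12.8 CPM, and in aorta dNdK at 11.9 and 13.4 CPM. In muscle Rosa26 it was at 13.3, 22.2, 17.5 and 10.3 CPM, and in muscle dNdK at 23.9, 19.2 and 7.10 CPM. The groups overlapped, with aorta Rosa26 1 and 2 above the other 11 libraries. These 2 libraries were also highest in 9 measured T cell markers, whose summed level was 88.0 and 145 CPM there, 26.6 and 8.11 CPM in aorta Rosa26 3 and 4, and 19.5 and 15.5 CPM in aorta dNdK. In muscle the sum was 1.76 to 18.3 CPM. The part of immune cells in the Cnp level was not tested. The log2 fold change of Cnp in aorta over muscle was 0.70 in Rosa26 (SE 0.38, adjusted p = 0.139 by edgeR) and -0.39 in dNdK (SE 0.53, adjusted p = 0.642). Without aorta Rosa26 1 and 2 the Rosa26 value was -0.13 (adjusted p = 0.778), and with library size alone and all libraries it was 1.60 (adjusted p = 0.0064).

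**Figure D2:**
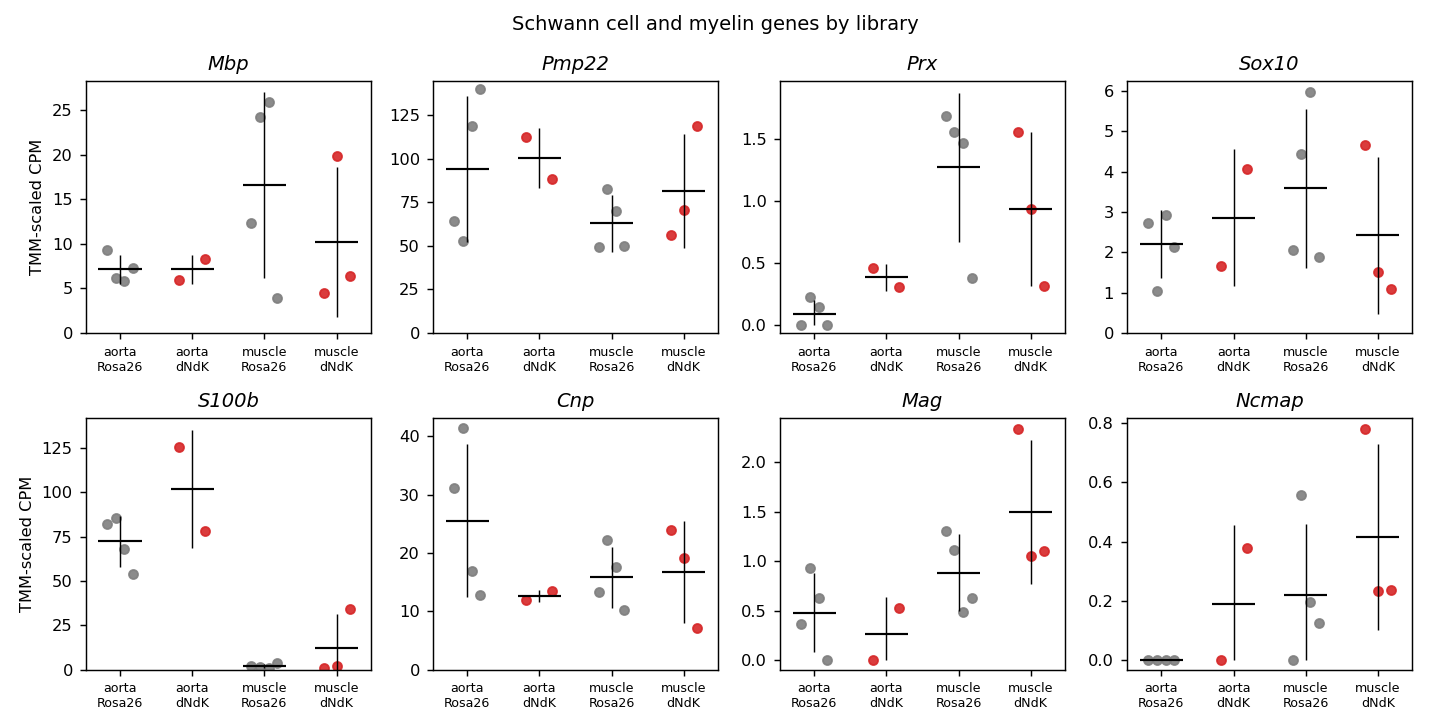
TMM-scaled CPM of the 8 genes in the 13 libraries, with grey points for Rosa26 and red points for dNdK. The horizontal bar is the group mean and the vertical line 1 SD to each side, not drawn below 0. S100b lies at 54.0 CPM or above in each aorta library and at 34.1 CPM or below in each muscle library, while Mbp has its widest range, 3.90 to 26.0 CPM, in muscle Rosa26.

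Over the tissue comparisons, 1 of the 5 members tested in Rosa26 passed the threshold, S100b, higher in aorta. Of all 11058 genes tested there 58.4% did, 31% higher and 27.5% lower in aorta, so the members' share was no higher than that of genes at large. In dNdK 0 of 6 members tested passed, against 15.8% of 11426 genes (5.22% higher, 10.5% lower). At an unadjusted p under 0.05 by edgeR there were 0 members, beside 4001 of all genes tested. The median log2 fold change of the members tested was 0.57 in Rosa26 and -0.04 in dNdK, beside 0.08 and -0.01 over all genes.

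The other peripheral nerve genes were taken from lists of the same roles. Their counts stand beside 31% of all genes higher and 27.5% lower in aorta in Rosa26. In dNdK these shares were 5.22% and 10.5%. Which cells made the RNA of the list genes was not tested. Of 4 tested genes of the compact myelin list, 1 was higher and 0 were lower in aorta in Rosa26, Mpzl1 (log2 fold change 1.19, SE 0.37, adjusted p = 0.0184 by edgeR), a receptor-like membrane protein. In dNdK 0 of 4 passed, with Mpzl1 at 0.97 (SE 0.35, adjusted p = 0.108). Mal, a raft protein of myelin, gave 0.09 in Rosa26 (adjusted p = 0.847) and -0.78 in dNdK (adjusted p = 0.402), and Pmp2 was at 0 in all 13 libraries.

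Of the 12 tested genes of non-compact myelin and the node, 4 were higher and 2 lower in aorta in Rosa26. Lower were Cldn19, a claudin of Schwann cell tight junctions (-3.82, SE 0.57, adjusted p = 0.000244 by edgeR), and Gjc3, a connexin of myelinating glia (-2.24, SE 0.69, adjusted p = 0.0174). Gldn, gliomedin of the node, was the strongest of those higher (4.34, SE 0.67, adjusted p = 0.00031). Cldn19 was near the floor in aorta Rosa26, at 0 to 0.295 CPM (10 counts over 4 libraries). Within dNdK, aorta was again lower than muscle in Cldn19 (-3.12, adjusted p = 0.0295 by edgeR), with 10 counts over 2 aorta libraries. In both genotypes Cldn19 passed the filter through its muscle counts, so a call could only be lower in aorta. Aorta was again higher in Gldn (4.13, adjusted p = 0.00495 by edgeR). In dNdK 14 genes of the list were tested and no further one passed. Of the 6 tested genes of myelin lipid synthesis 5 were higher and 0 lower in Rosa26, and 4 were higher and 0 lower in dNdK. The first among them was Sqle, squalene epoxidase of cholesterol synthesis (4.41, SE 0.41, adjusted p = 8.71e-06 in Rosa26). These enzymes also serve other cells, fat cells among them.

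Of the 9 tested genes of non-myelinating Schwann cells, 5 were higher and 1 lower in aorta in Rosa26. Over all genes tested there 31% were higher and 27.5% lower. Scn7a, a sodium channel that non-myelinating Schwann cells carry, differed by 1.91 on the log2 scale (SE 0.31, adjusted p = 0.00043 by edgeR). Cdh19, a cadherin of the Schwann lineage, differed by 1.71 (SE 0.58, adjusted p = 0.0262 by edgeR). Ncam1, an adhesion molecule that muscle fibres also make, was the 1 lower (-3.05, adjusted p = 0.0018). In dNdK 0 of 8 were higher and Ncam1 was the 1 lower (-3.31, adjusted p = 0.0104). There Scn7a gave 0.21 (adjusted p = 0.825) and Cdh19 0.39 (adjusted p = 0.670), and muscle dNdK 3 was the highest muscle library in both, at 36.0 CPM of Scn7a against 6.54 to 13.2 CPM in the other 6 and at 4.97 CPM of Cdh19 against 0.755 to 4.11 CPM. For each count of Sox10 there were 2.2 to 3.73 counts of Cdh19 in aorta Rosa26, 1.15 to 2 in aorta dNdK, 0.275 to 0.727 in muscle Rosa26 and 0.375 to 4.5 in muscle dNdK, a ratio that does not depend on the scaling. Ngfr, the neurotrophin receptor of these cells, did not pass (0.63, adjusted p = 0.348 in Rosa26). Of the other Schwann transcription factors 1 of 4 tested was higher in Rosa26, Nab1, and Egr2, which drives myelination, was at 0 to 0.789 CPM and was not tested. Of 11 tested signalling genes 1 was higher and 2 were lower in Rosa26, and 0 passed in dNdK.

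**Figure D3:**
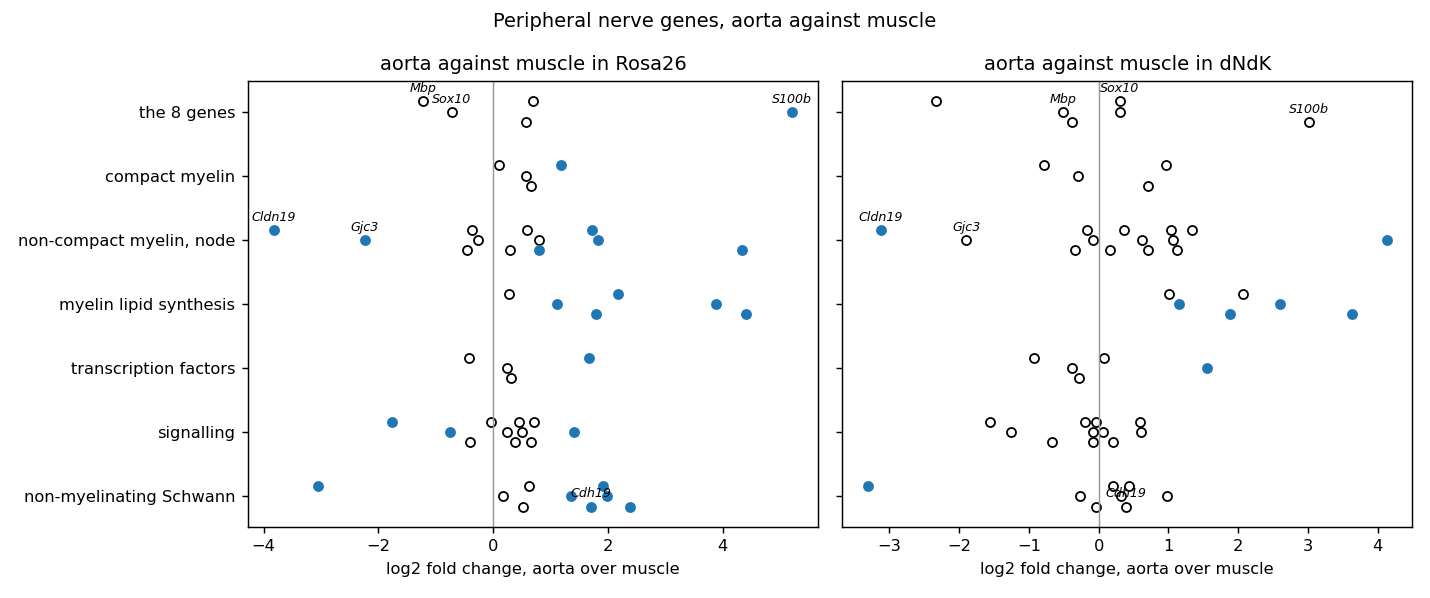
Log2 fold change of aorta over muscle for the tested genes reported from 7 lists of peripheral nerve genes, in Rosa26 (left) and dNdK (right), 1 point a gene. Filled points passed an adjusted p of 0.05 by edgeR. Cldn19 lies at -3.82 and -3.12, and S100b at 5.21 and 3.01.

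With scaling by library size alone, more genes of these lists passed as higher in aorta in Rosa26: 8 of 12 for non-compact myelin and node with 1 lower, 3 of 4 for compact myelin with 0 lower, and 7 of 9 for non-myelinating Schwann cells with 1 lower. It was 6 of 6 for myelin lipid synthesis, 3 of 4 for transcription factors, and 6 of 11 for signalling with 1 lower. Of all 11058 genes tested, 56.6% passed as higher and 11.7% as lower with that scaling. Gjc3 no longer passed (-1.40, adjusted p = 0.0882), while Cldn19 (-2.95, adjusted p = 0.0012) stayed lower in aorta. The lists were chosen with results of these data known, and their counts are a description.

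Between genotypes in aorta, 0 of the 5 members tested passed by edgeR, with 0 at an unadjusted p under 0.05 and 0 by DESeq2. Over all genes 0.00839% passed (1 of 11920), with 713 at an unadjusted p under 0.05. The median log2 fold change was 0.10 over the members tested and -0.05 over all genes. The groups of 0 of the 5 tested members failed to overlap, against 17.4% of all genes tested. The largest change was in Cnp, whose mean ± SD was 25.6 ± 13.2 CPM over 4 Rosa26 libraries and 12.6 ± 1.09 CPM over 2 dNdK libraries, with a log2 fold change of -1.03 (SE 0.48, adjusted p = 0.757 by edgeR). Without aorta Rosa26 1 and 2, the libraries high in T cell genes, it was -0.22 (adjusted p = 0.687). S100b averaged 72.4 ± 14.4 CPM in the Rosa26 libraries against 102 ± 33.4 CPM in those of dNdK (log2 fold change 0.49, 95% interval -0.17 to 1.15). Sox10 had an interval from -0.97 to 1.71, Pmp22 from -0.81 to 1.02 and Mbp from -0.77 to 0.77. Changes within those intervals are not excluded by these libraries. Prx, with 6 counts in 4 Rosa26 libraries and 9 in 2 dNdK libraries, had higher values in both dNdK libraries than in the Rosa26 libraries, but the floor of aorta Rosa26 4 (0.641 CPM, 0 counts) is above both. Like Mag and Ncmap it did not pass the filter.

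Between genotypes in muscle, 0 of the 7 members tested passed by edgeR or DESeq2, and of all 10491 genes 0% passed, with 792 at an unadjusted p under 0.05 (DESeq2 called 7). The median log2 fold change was 0.08 over the members tested and 0.03 over all genes. Of the tested members 0 had groups that did not overlap, against 5.96% of all genes tested. S100b was the 1 member with an unadjusted p under 0.05 (0.0248), with means of 1.97 ± 1.07 CPM (4 Rosa26 libraries) and 12.4 ± 18.8 CPM (3 dNdK libraries). Its log2 fold change was 2.71 (SE 1.01, adjusted p = 0.656 by edgeR), and without muscle dNdK 3 it was -0.28 (adjusted p = 0.986). The value thus rested on the library with 756 CPM of Ucp1. Mbp was at 16.6 ± 10.4 and 10.2 ± 8.39 CPM (-0.69, SE 0.67), Sox10 at 3.59 ± 1.97 and 2.43 ± 1.95 CPM (-0.62, SE 0.64) and Prx at 1.27 ± 0.602 and 0.935 ± 0.620 CPM (-0.51, SE 0.70). Mag was at 0.884 ± 0.388 and 1.496 ± 0.726 CPM (0.76, SE 0.57), and Pmp22 at 62.9 ± 16.3 and 81.7 ± 32.7 CPM (0.40, SE 0.31). Adjusted p was 0.789 to 0.981 for these genes and Cnp, so no direction can be read from them.

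**Figure D4:**
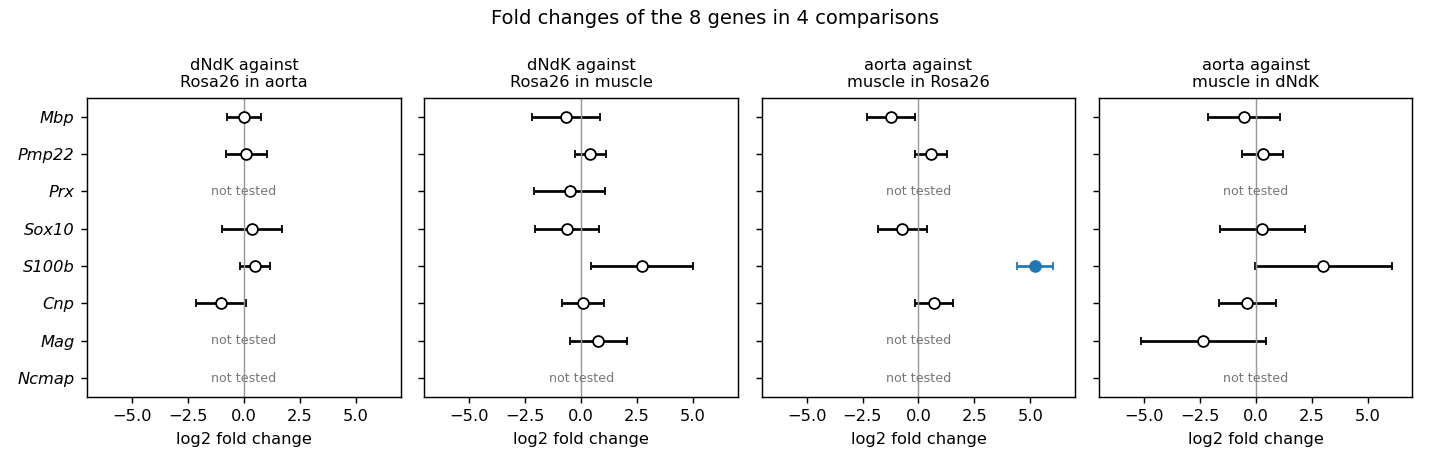
Log2 fold changes with 95% intervals from edgeR's fits in 4 comparisons, for those of the 8 genes that passed the filter. The others are marked as not tested. The filled blue point, S100b in aorta over muscle of Rosa26 at 5.21, passed an adjusted p of 0.05, and the open points did not. The wide interval of S100b in muscle, 0.43 to 4.99, comes with 1 high library among the 3 of dNdK.

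The genotype effect was also set against itself between the tissues, as effect in aorta minus effect in muscle. By edgeR 0 of 7 members passed (0% of 12318 genes, with 1044 at an unadjusted p under 0.05, of which 0 were members; DESeq2 called 6 genes and 0 members). The difference was 2.19 (SE 1.28) for Prx, -2.22 (SE 1.24) for S100b and -1.09 (SE 0.69) for Cnp, with adjusted p of 0.633, 0.614 and 0.658. Without muscle dNdK 3 that of S100b was 0.76 (adjusted p = 0.792). In none of the 6 other nerve lists did a gene pass in either genotype comparison or in this difference by edgeR. The lowest list median between genotypes was that of non-myelinating Schwann cells. It was -0.60 in aorta, with 10 of 10 tested genes lower in dNdK, and -0.31 in muscle, with 4 of 7 lower. The highest was that of myelin lipid synthesis, 0.64 in aorta and 0.43 in muscle over 6 tested genes. In muscle this list summed to 323 CPM in dNdK 3, against 189 and 215 CPM in dNdK 1 and 2 and 193 to 208 CPM in Rosa26. The sum of 10 white adipocyte genes was also highest there, at 14353 CPM against 804 to 1576 CPM in the other 6 muscle libraries, and its part in the list's median was not tested.

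The 8 genes did not vary as a block from library to library. Within a tissue, Pearson's r over the 6 aorta libraries was -0.89 for Cnp with Pmp22 and 0.49 for Mbp with Sox10. Over the 7 muscle libraries it was 0.82 for Prx with Cnp, 0.74 for Sox10 with Cnp and 0.73 for Prx with Sox10, but -0.88 for S100b with Cnp and -0.73 for S100b with Sox10. These values describe few libraries that share depth and make-up, with muscle dNdK 3 at an end of several. A profile was made as the mean of the 5 members tested in both tissues, Mbp, Pmp22, Sox10, S100b and Cnp, on log2 CPM centred within each tissue. Over the 13 libraries Mbp, itself in the profile, had an r of 0.68 with it. The other genes in it had lower values: Pmp22 0.48, Sox10 0.30, S100b 0.18 and Cnp 0.12. Mag, which is not in it, had 0.01. The profile thus stands weakly for most of its own members, and likeness to it says little about each of them. Of the 9074 genes compared, the other genes most alike were Plk2 (0.90), Plekha8 (0.86), Tead4 (0.85), Rrad (0.85), Fnbp1l (0.84), Ebf2 (0.84), Naalad2 (0.83) and Tmem33 (0.83). The likeness was mostly that of the muscle libraries: r was 0.96 in muscle and 0.48 in aorta for Plk2, 0.95 and 0.54 for Plekha8, and 0.91 and 0.27 for Tead4. No gene of the nerve lists is among these 8.

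Markers of other cells that read myelin or glial genes were looked up in the same libraries. Oligodendrocytes, the myelinating glia of the brain, make Mbp, Cnp, Mag and Sox10. Of their defining markers Mog was at most 0.234 CPM, Mobp at most 0.389 CPM, and Opalin at 0 in all 13 libraries. Olig1 and Myrf of the same list were at 5.44 to 15.9 and 5.55 to 26.0 CPM in aorta and at most 0.789 CPM in muscle, and the list summed to 13.03 to 32.1 CPM in aorta and 0.374 to 1.66 CPM in muscle. Melanocytes share Sox10, and their enzyme Tyr was at 0 in all 13 libraries, with Dct at most 0.679 CPM and Mlana at most 1.21 CPM. Kit, Ednrb and Mitf of that list, which other cells also express, were at 8.93 to 24.4, 11.8 to 22.1 and 3.20 to 7.66 CPM in aorta and at 0.880 to 4.89, 3.74 to 15.8 and 11.7 to 22.2 CPM in muscle. The list summed to 33.6 to 49.3 CPM in aorta and 23.0 to 34.8 CPM in muscle. Of the neuron genes, which nerve cell bodies would carry, Th and Nefl were at most 0.460 and 0.442 CPM, while Stmn2 was at 25.3 to 49.4 CPM in aorta and 4.78 to 22.1 CPM in muscle. Uchl1, an enzyme abundant in neurons, went the other way, at 2.79 to 8.02 CPM in aorta and 13.03 to 81.4 CPM in muscle (log2 fold change -2.90, adjusted p = 0.0012 in Rosa26 by edgeR). The list of 17 genes summed to 31.6 to 60.5 CPM in aorta and 24.9 to 100.3 CPM in muscle.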

How the data were processed

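Targeted RNA sequencing (AmpliSeq on Ion Torrent, per the labels' protocols) was done on 6 aorta and 7 muscle libraries, grouped by tissue and genotype as the labels give them. The authors deposited raw read counts per gene for each library, made with STAR 2.5.2b on mm10 (GRCm38.p6), and used edgeR 3.28.1 and limma 3.42.2, per the submitters' processing notes. Counts of both strands together were used, since 46.3% to 49.3% of reads fell on the first strand. The 4 lines of unassigned reads were left out of library sizes, and 86.7% to 91.4% of reads were assigned to genes. Amplicon reads without molecular identifiers are not independent molecules, so floors cover counting error only. Promoters and gene positions are from RefSeq on GRCm38.p6.

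In R 4.3.3, each comparison was fitted on its own libraries with edgeR 4.0.16 (filterByExpr with min.count 10 and min.total.count 15, TMM, quasi-likelihood test, Benjamini-Hochberg over all genes tested, threshold 0.05), and the difference between the tissues on all 13 as an interaction term. SE is the size of the log2 fold change divided by the root of the quasi-likelihood F, and 95% intervals use its t distribution. Levels are TMM-scaled CPM over the 13 libraries. The profile for likeness used log2 CPM with a prior count of 2, over genes with a mean log2 CPM of at least 1 in each tissue. On simulated counts with the same libraries, 4-fold changes were called for 62% of changed genes in aorta and 76% in muscle. Between the tissues it was 92% in Rosa26 and 34% in dNdK. For 2-fold changes it was 4%, 19%, 30% and 2%. Only 100 genes were changed at each fold, with a spread from the trend over all genes. In the data 58.4% of genes passed between the tissues in Rosa26. The simulated shares need not hold there or for single genes.

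All 8 genes are named in each comparison, and of other lists the members with the smallest p and the best known nerve genes. The genes, the 19 other lists and the rule were chosen with earlier results of these data known. The numbers in the titles were not taken to pair the libraries, since same-numbered libraries did not deviate together throughout (correlations of -0.29, 0.30, -0.29 and 0.24 between the tissues in Rosa26). Numbers in the deposited names recur between the tissues for 3 Rosa26 pairs, whose deviations had correlations of 0.26, 0.28 and 0.24, so these were treated as possible pairs in an alternative fit. The 1 with 0.24 also shares a title number. In dNdK 1 number recurs, in aorta dNdK 1 and muscle dNdK 3 (0.16), and with 1 pair it was not blocked. Alternatives were DESeq2 1.42.0, RLE size factors, library size alone (added after seeing the data), no filter, each strand, each library left out, libraries with heart or B cell genes left out, a replicate block and 1 fit of all libraries. Drp2, Gjb1 and L1cam were not analysed here, and some further list genes are not reported here.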

Additional observations from a re-analysis of the deposited data

Results flagged for a closer look

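In 16 sets of 4 libraries (8 genes in 2 groups of Rosa26), each was looked over for a library far from the other 3, a rule that chance meets in about 1 set in 20. It was met by 1 set, Prx in muscle Rosa26. There library 4, at 0.377 CPM (3 counts), lay below the others at 1.47 to 1.68 CPM, with a gap of 0.838 of the whole range. The cause was not tested. The same library was the lowest of its group in Mbp, Sox10 and Cnp. It was the highest in S100b (3.52 CPM) and not the lowest in Pmp22, Mag or Ncmap.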

How the results depend on the processing

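S100b stayed higher in aorta and past the threshold in Rosa26 under each of the 18 alternatives. The number of members called in that comparison, 1 with all settings as described, was 2 with DESeq2, RLE size factors, either strand alone and the fit of all 13 libraries, 3 with library size alone (Pmp22, S100b, Cnp) and without both aorta libraries with heart RNA, 4 with no filter (Mbp, Prx, S100b, Ncmap), and 1 to 3 with 1 library left out. In dNdK it was 1 (S100b) with DESeq2 and with all 13 libraries in 1 fit, and 0 to 1 with 1 library left out, the 1 being without muscle dNdK 3. A replicate block on the number in the titles gave 1 member in that comparison (S100b, log2 fold change 5.91, adjusted p = 0.00032) and 1 in aorta between genotypes (Cnp, -1.52, adjusted p = 0.0292). The same replicate block turned Cnp between genotypes in muscle to -0.21 and Sox10 between the tissues in dNdK to -0.026. The block on the number in the deposited names changed no member's call in Rosa26 (S100b 4.995, adjusted p = 9.74e-05). Title numbers did not pair the libraries throughout, and a call gained under the block is no sign of a larger effect.

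Between genotypes no member passed under any other alternative. Signs of values that did not pass turned as follows, and the cause was not tested. In aorta, Mbp was 0.020 with DESeq2, 0.018 with RLE and 0.44 on the second strand. It was 0.0041 with all libraries and 0.17 without both libraries with high B cell genes. Both are aorta Rosa26 1 and 2, which also held heart RNA and the highest T cell and macrophage sums. Leaving them out thus does not separate these sources. Pmp22 was -0.0041 with library size alone, -0.17 without the 3 libraries with heart RNA and -0.33 without both B cell libraries. Sox10 was -0.29 on the second strand and -0.60 without the heart libraries, which leaves 1 dNdK library, assumed to vary like the Rosa26 ones. In muscle, Sox10 was 0.011 and Cnp -0.33 on the second strand. Between the tissues, Sox10 was 0.14 with library size alone and Cnp -0.13 without both heart libraries in Rosa26. In dNdK Mbp was 0.080 and Cnp 0.25 with library size alone, and Mbp 0.17, Cnp 0.61 and Sox10 -0.72 on the second strand. In the difference between the tissues Mbp was -0.022 on the first strand and Sox10 -0.32 on the second.

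With 1 library left out (which leaves 1 in aorta dNdK when 1 of its 2 is dropped), values ran from -0.23 to 0.20 for Mbp, -0.10 to 0.35 for Pmp22 and -0.39 to 0.87 for Sox10 between genotypes in aorta, and from -0.28 to 3.22 for S100b and -0.28 to 0.45 for Cnp in muscle. Between the tissues in dNdK they ran from -0.85 to 0.39 for Mbp and -0.52 to 1.16 for Sox10, and in the difference between the tissues from -0.48 to 0.12 for Pmp22 and -2.73 to 0.76 for S100b. Over all alternatives the number of genes called was 0 to 264 in aorta, 0 to 7 in muscle, 4814 to 7552 between the tissues in Rosa26, 322 to 3334 in dNdK and 0 to 6 for the difference. In aorta 264 were called without both B cell libraries and 163 with the block on title numbers, against 1. Depth limits Prx, Mag and Ncmap, which had 17 counts or fewer in each library.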
